A study of Equus caballus with 34 samples.

Results

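Late dominant (LD) follicles of the horse were compared between their cell layers, granulosa cells (GC) and the theca wall (TW), across the genome. The comparison was made between the 5 arrays whose titles read GC LD and the 9 that read TW LD, 14 of the 34 arrays of the series. Each RNA sample had been hybridised to its own 1-colour Agilent array. The other 20 arrays hold the same layers in follicles of the early dominant (ED) and the preovulatory (PO) stage, 5 per layer and stage, and enter only where the layer difference is compared between stages. The GC arrays lay on 5 slides and the TW arrays on 7. The labels give a layer and a stage and no treatment, breed or age, and the design text calls the samples biological replicates. It speaks of 5 per group, and as nothing picks out 5 of the 9 TW LD arrays, all 9 were used. No label ties a GC sample to the TW sample of the same follicle, so the layers were treated as independent samples. A theca wall is a whole tissue layer with blood vessels, stroma and resident immune cells, and in such bulk samples fewer cells of a type and less RNA per cell cannot be told apart.

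The dominant follicle is the one that outgrows its cohort and goes on to ovulate. Its granulosa cells form an avascular layer inside a basement membrane and respond to follicle-stimulating hormone, while the theca outside it is vascular and responds to luteinising hormone. In the model known as shared steroid synthesis, theca cells make androgens and granulosa cells turn them into oestradiol. Signals also cross the basement membrane, among them hedgehog proteins, which in rodents and cattle are made by granulosa cells and read by theca cells.

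Each gene was read by oligonucleotide probes of 60 bases, and those shown here are the probes of 3 genes on which the comparison turns, a granulosa signal, a theca receptor and a shared steroidogenic enzyme. They are printed as the scanner files give them, 5′ to 3′. The positions are those of the files, which do not name their genome build.
IHH, chromosome 6, 8623620 to 8623679, minus strand: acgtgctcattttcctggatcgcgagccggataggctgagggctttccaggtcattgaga
PTH1R, chromosome 16, 39950747 to 39951314, minus strand: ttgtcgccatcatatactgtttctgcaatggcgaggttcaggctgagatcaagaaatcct
CYP11A1, chromosome 1, 116608174 to 116608233, plus strand: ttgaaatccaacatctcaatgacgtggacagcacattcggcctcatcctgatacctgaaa
The PTH1R positions span 568 bases, more than the probe's 60, and the positions of the IHH and CYP11A1 probes span 60.

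Levels are log2 of the processed signal relative to the 75th percentile of the same array, so that a level of 0 equals that percentile. Levels of different genes come from different probes and are not set against each other. Differences are GC minus TW on the log2 scale, given as mean ± SE, and group levels as mean ± SD over 5 GC and 9 TW arrays unless fewer are named. A gene was called different when its limma p, adjusted by Benjamini and Hochberg over all features, was under 0.05. "Measured on" counts arrays whose signal was well above background, and where no array of a group reached that, the fold is given as at least the stated value, against the lowest signal well above background on each array. Saturated spots were kept at their value, so the fold of a gene saturated on part of the arrays may be understated.

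Where called, granulosa and theca markers were higher in the layer of their name. The lists were chosen with earlier results of these data known, so this is no independent check of the labels. Over all features tested, 9.58% were called higher in GC and 17.8% higher in TW. Of 17 granulosa markers measured, 11 were higher in GC and none was higher in TW, with a median difference of 2.66. Of 20 theca markers, 18 were higher in TW and none in GC, with a median of -4.0, while the median over all features was -0.041. The summed granulosa marker level was 195 to 486 times the 75th percentile on GC arrays and 48.0 to 111 times on TW arrays, and the summed theca marker level 20.2 to 119 and 223 to 358. Neither range overlapped between layers. These sums rest mostly on the brightest members of each list. GC LD arrays 1 and 4 had the highest theca sums among the GC arrays, 119 and 80.8, against 20.2 to 42.5 on the other 3. They also had the highest granulosa sums, 486 and 374, against 195 to 240 on the other 3. Their 75th percentiles, by which the sums are scaled, were the lowest of the GC LD arrays, at processed signals of 930 and 785. The part of the scaling in these sums was not tested. Markers of other cells of the wall also separated the layers. Summed endothelial markers were 0.282 to 2.65 on GC and 5.20 to 17.3 on TW arrays, and leukocyte markers 2.52 to 7.71 and 13.8 to 32.0. Smooth muscle and pericyte sums overlapped, at 5.28 to 14.7 and 14.3 to 46.5. The endothelial markers SELE, PROX1, EMCN and TEK and the smooth muscle markers NOTCH3 and MYH11 were not well above background on any GC array, and no leukocyte marker was absent in that way.

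**Figure D1:**
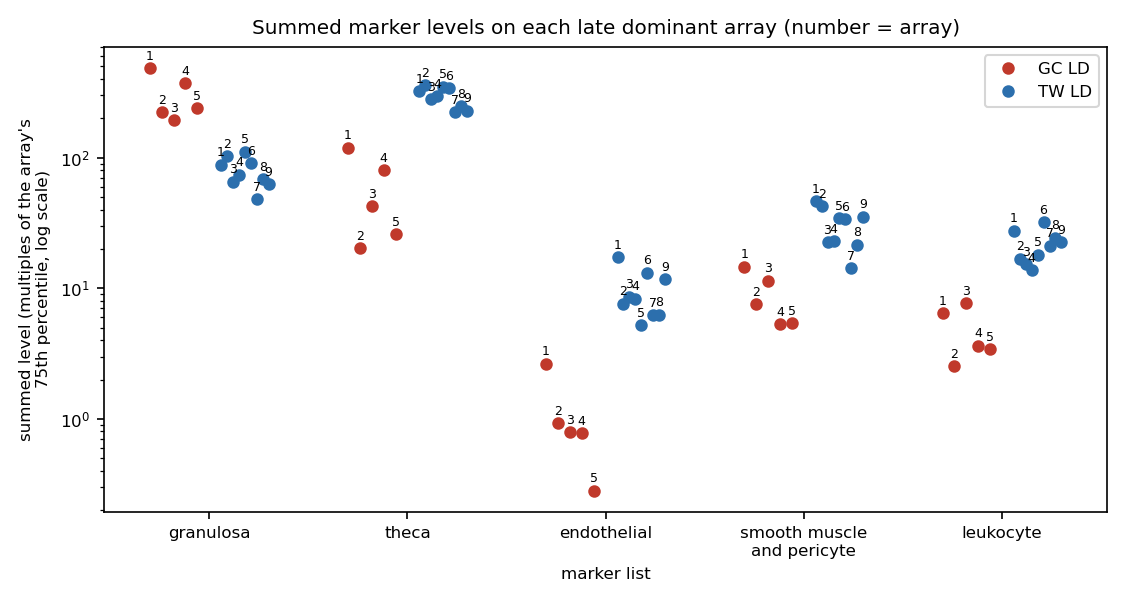
Summed level of each marker list on each of the 14 late dominant arrays, as multiples of the array's 75th percentile on a log axis. Numbers name the arrays within a layer. The granulosa, theca, endothelial and leukocyte sums do not overlap between layers. GC LD arrays 1 and 4 carry the highest theca sums and the highest granulosa sums of the GC arrays.

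Across the genome, 25878 features were tested, 9824 of them named genes. Of these features 2478 were higher in GC (9.58%) and 4605 higher in TW (17.8%), 27.4% in all. Counts of list members are to be read beside these shares. Among the named genes 833 were higher in GC (8.48%) and 1722 in TW (17.5%). No GC array overlapped any TW array for 2866 features (11.1%). Among the called features, 747 without overlap were higher in GC (2.89%) and 2071 higher in TW (8%). Large differences were more often toward theca, where 1041 called features were over 10-fold higher, against 150 over 10-fold higher in GC. The direction of the smaller differences depended on the scaling. GC-higher features made up 35.0% of the calls here, but 52.4% after quantile normalization, 53.2% after normexp background correction and quantile normalization, 53.1% in the authors' deposited table and 71.7% when arrays were centred on their median. Median centring moved the median over all features from -0.041 to 0.42. The excess of over-10-fold differences in TW held under each of these scalings, from 148 against 44 with normexp to 779 against 207 with quantile normalization and 711 against 231 with median centring. Without GC arrays 1 and 4, which had the highest theca and granulosa sums, 1537 features were higher in GC and 3604 in TW. Replicate arrays correlated at 0.871 to 0.967 within GC and 0.909 to 0.988 within TW, and at 0.803 to 0.903 between layers.

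Among named genes called without overlap of the layers, the gene with the largest difference toward GC was CDH2, encoding N-cadherin, a calcium-dependent adhesion molecule. Its level was 5.20, 4.54, 4.56, 4.91 and 4.48 on the GC arrays and ran from -3.44 to 0.89 with a median of -1.97 on the TW arrays. All GC arrays lay above all TW arrays, with a mean difference of 6.67 ± 0.58 or 102-fold (adjusted p = 1.36e-06). PTHLH, parathyroid hormone-like hormone, was at 3.29, 2.50, 1.35, 4.48 and 1.93 in GC and from -5.28 to -2.0 with a median of -3.59 in TW, again without overlap, a difference of 6.22 ± 0.57 (74.7-fold, adjusted p = 2.10e-06). NR5A2, a nuclear receptor that granulosa cells of mice need for ovulation, was at 4.05, 2.73, 2.46, 3.37 and 3.11 in GC and from -3.37 to -0.45 with a median of -2.28 in TW, 36.6-fold higher in GC (adjusted p = 9.63e-07). Among the 15 named genes of largest difference without overlap were also the ErbB receptor ERBB4 (5.57 ± 0.66, measured on 2 of 9 TW arrays), the semaphorin SEMA3E (6.22 ± 0.60, measured on 1 of 9 TW arrays), the potassium channel subunit KCNV1 (5.85 ± 0.74, measured on 3 of 9 TW arrays) and MAB21L2 (6.12 ± 0.55, measured on 4 of 9 TW arrays). Secreted and matrix proteins were represented by THBS4 (5.48 ± 0.74), a thrombospondin, and SFRP4 (5.38 ± 0.94), a secreted frizzled-related protein. The rest were the prostaglandin D synthase PTGDS (4.98 ± 0.49), the RNA-binding protein IGF2BP2 (4.69 ± 0.55), the membrane glycoprotein embigin, EMB (4.51 ± 0.85), the channel auxiliary factor NALF1 (4.79 ± 0.36, measured on 6 of 9 TW arrays), and LSMEM2 (4.73 ± 0.48, at least 8.15-fold) and TRABD2A (4.64 ± 0.46, at least 10.4-fold). Adjusted p was at most 0.00105 in these genes. The GC arrays lay close together for NALF1, from -2.54 to -1.45, and apart for SFRP4, from -1.47 to 4.90.

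Toward TW the largest difference among named genes called without overlap was in LRRC17, a leucine-rich repeat protein, at -7.31 ± 0.75 (159-fold, adjusted p = 7.50e-06, 8 TW arrays). Its GC signal was measured on 3 of 5 arrays. TCF21, a transcription factor of mesenchymal cells, was at -1.28, -3.65, -6.65, -2.10 and -3.28 in GC and from 3.04 to 3.94 with a median of 3.55 in TW on 8 TW arrays, without overlap, and 121-fold higher in TW (adjusted p = 3.89e-06). The chemokine CXCL10, which attracts T cells, was at -0.48, -3.59, -8.85, 0.26 and -3.14 in GC and from 2.04 to 4.18 with a median of 3.60 in TW. No GC array reached the lowest TW array, although GC arrays spanned from -8.85 to 0.26, and the difference was -6.64 ± 1.08 (adjusted p = 0.000334). Its SD was 3.59 in GC and 0.70 in TW, which the fit pools. Stromal and matrix genes in this group were dermatopontin DPT (-6.53 ± 0.55, measured on 4 of 5 GC arrays), the matricellular SPARCL1 (-6.31 ± 0.61) and SMOC2 (-6.01 ± 0.92, measured on 4 of 5 GC arrays), the last on 8 TW arrays, and the transcription factor SNAI2 (-6.53 ± 0.53, measured on 1 of 5 GC arrays). Vascular and adhesion genes were the endothelial ECSCR (-6.73 ± 0.86, measured on 3 of 5 GC arrays) and VCAM1 (-6.37 ± 0.61, measured on 4 of 5 GC arrays), which binds leukocyte integrins. The others were the lectin FCN3 (-6.24 ± 0.52, measured on 3 of 5 GC arrays), the LIM-domain-binding LDB2 (-6.45 ± 0.68, measured on 3 of 5 GC arrays), TM4SF18 (-6.43 ± 0.68, measured on 2 of 5 GC arrays), HIGD1B (-6.39 ± 0.55, measured on 2 of 5 GC arrays) and CACNG3 (-6.61 ± 0.61, measured on 3 of 5 GC arrays) and SNCAIP (-6.14 ± 0.33, at least 23.9-fold). Adjusted p was at most 0.000235 in these genes.

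Hormone receptors fell on both sides. Of 13 gonadotrophin, steroid and related hormone receptors measured, 3 were higher in GC, 3 higher in TW and 7 not called, with a median difference of 0.53. FSHR, the receptor for follicle-stimulating hormone, was at -1.55, -4.95, -5.71, -1.08 and 0.80 on the 5 GC arrays and ran from -8.69 to -5.02 with a median of -7.71 in TW, where 3 of 9 arrays measured it. GC arrays 1, 4 and 5 lay well above every TW array, array 2 just above the highest of them and array 3 inside their range. The difference was 4.80 ± 0.95 or 27.9-fold (adjusted p = 0.00152). LHCGR, the receptor for luteinising hormone, was at -2.82, -5.21, -2.81, -0.31 and -2.91 in GC and from -5.96 to -0.63 with a median of -2.42 in TW. GC array 4 lay above the TW range and the others inside it, with a difference of -0.035 ± 0.87 (adjusted p = 0.983). Also higher in GC were the growth hormone receptor GHR (1.83 ± 0.42) and the membrane progestin receptor PAQR8 (1.73 ± 0.42). Higher in TW were the insulin receptor INSR (-3.26 ± 0.35) and the membrane oestrogen receptor GPER1 (-3.89 ± 0.35, at least 5.47-fold), with adjusted p of 7.50e-06 and 2.07e-06. The oestrogen receptors ESR1 (0.40 ± 0.46) and ESR2 (0.041 ± 0.34, measured on 4 of 5 GC arrays and 8 of 9 TW arrays) were not called, with adjusted p of 0.565 and 0.945. PGR, the progesterone receptor, was at 3.16, -1.70, -2.0, -0.057 and -0.28 in GC and -1.89 ± 0.44 in TW. GC array 1 was far above the rest, and the difference of 1.72 ± 0.63 had an adjusted p of 0.0561. Without GC array 2 or 3 that p was 0.029 or 0.016. PGR was called toward GC under each of the 4 other scalings (adjusted p from 0.0114 to 0.043), in the fit of all 34 arrays (0.00798), with slide as a random block (0.0423), with the mean of all probes (0.0415) and with a trended prior (0.0492).

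Steroidogenic genes were called in both directions. Of 25 steroid synthesis genes, 4 were higher in GC, 7 higher in TW and 14 not called (median -0.58). At the entry of the pathway, STAR, which carries cholesterol into mitochondria, was at 3.74, 2.52, 4.09, 2.47 and -0.16 in GC and from 4.11 to 5.86 with a median of 5.24 in TW, saturated on 1 TW array, without overlap and 6.24-fold higher in TW (adjusted p = 0.00224). CYP11A1, the side-chain cleavage enzyme that turns cholesterol into pregnenolone, was at 3.54, 0.85, 5.32, 3.64 and 1.37 in GC and from 4.07 to 6.00 with a median of 5.62 in TW, saturated on 2 TW arrays. GC array 3 lay within the TW range and the other 4 below it, a difference of -2.44 ± 0.60 (adjusted p = 0.00712). TSPO, a mitochondrial cholesterol-binding protein, was also higher in TW, by 3.69-fold (adjusted p = 0.00241). CYP17A1, the enzyme that makes androgens, was at 5.43, 1.95, 0.53, 4.99 and 2.28 in GC and from 4.90 to 5.92 with a median of 5.43 in TW, where 8 of 9 arrays were saturated. GC arrays 1 and 4, the GC arrays with the highest theca and granulosa sums, lay inside the TW range. CYP17A1 is itself a member of the theca marker list, so the theca sums are not independent of its level. The difference of -2.36 ± 0.64 (adjusted p = 0.0122) and those of -0.38 and -0.35 on the 2 slides that held those arrays beside a TW array have no set size, since the TW signal was saturated. CYP1B1, which hydroxylates oestrogens, was 6.27-fold higher in TW and measured on 1 of 5 GC arrays (adjusted p = 0.00313). Its call was lost under normexp correction and in the authors' deposited table, at adjusted p of 0.15 and 0.058.

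HSD3B2, CYP19A1 and HSD17B1 were higher in GC. HSD3B2, which makes progesterone from pregnenolone, was at 6.12, 5.77, 5.77, 6.30 and 5.13 in GC, saturated on all 5 arrays, and from 0.55 to 4.89 with a median of 1.85 in TW. It was at least 11.9-fold higher in GC without overlap (adjusted p = 0.000483), and TW array 1 gave the highest TW level. CYP19A1, the aromatase that makes oestrogens, was at 5.8, 1.76, 3.64, 6.15 and 5.03 in GC, saturated on 2 arrays, and from -1.75 to 2.14 with a median of 0.65 in TW. GC array 2 lay inside the TW range and the other 4 above it, with a difference of 3.98 ± 0.80 or 15.8-fold (adjusted p = 0.00177), and all 9 other CYP19A1 probes gave the same direction. HSD17B1, which reduces oestrone to oestradiol, was at -1.34, -5.22, -6.27, 1.79 and 2.52 in GC and -5.61 ± 0.81 in TW. GC arrays 4 and 5 were high, array 1 was lower and arrays 2 and 3 lay within the TW range. Its difference of 3.90 ± 1.21 (adjusted p = 0.0254) lost the call without GC array 1, 4 or 5, at adjusted p of 0.055, 0.083 and 0.075. POR, the reductase that supplies electrons to these P450 enzymes, was higher in GC by 1.53 ± 0.54, with an adjusted p of 0.0459 that rose to 0.14 without GC array 4, and leaving out GC array 1 or 5 or any 1 TW array also lost the call, with adjusted p from 0.057 to 0.12. With slide as a fixed block over all 34 arrays, STAR, CYP17A1, CYP19A1 and HSD3B2 were not called, at adjusted p of 0.15, 0.21, 0.11 and 0.064. INSL3, an insulin-like hormone of theca cells, was at 2.55, 1.5, 1.38, 1.25 and 0.97 in GC and from 1.94 to 4.22 with a median of 2.91 in TW, 2.65-fold higher in TW (adjusted p = 0.00634). HSD3B1 was not among the genes tested.

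**Figure D2:**
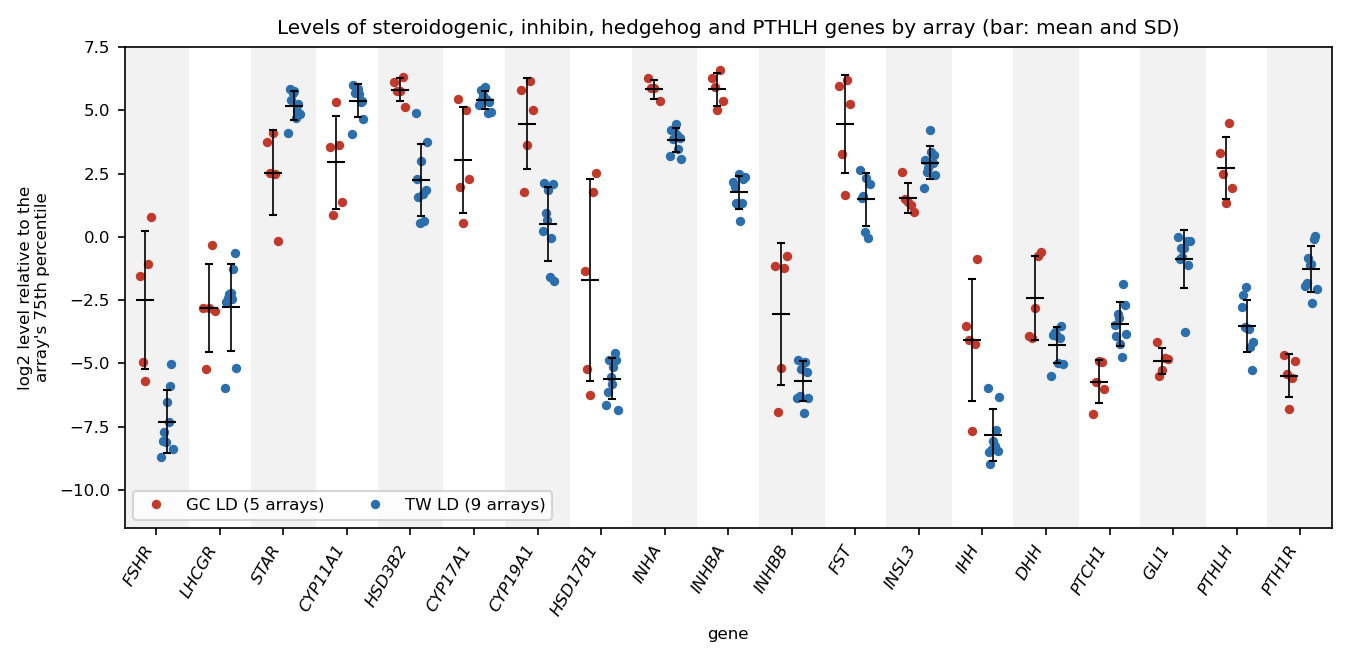
Level of 19 genes on each late dominant array, as log2 relative to the array's 75th percentile. Points are arrays, bars the mean and SD. Levels are comparable within a gene and not between genes. STAR, GLI1 and PTH1R are higher in all TW arrays than in any GC array, HSD3B2, INHBA and PTHLH the reverse, and LHCGR overlaps.

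Inhibin and activin subunits were higher in granulosa cells. Of 36 genes of the inhibin, activin, BMP and TGF-beta system, 8 were higher in GC and 10 higher in TW. INHBA, the beta A subunit, was at 6.27, 5.91, 5.00, 6.58 and 5.38 in GC, saturated on 4 of 5 arrays, and from 0.62 to 2.47 with a median of 1.98 in TW. With saturated spots at their value the difference was 4.07 ± 0.34 or 16.8-fold, without overlap (adjusted p = 1.12e-06). INHA, the alpha subunit, was at 6.26, 5.87, 5.86 and 5.35 on GC arrays 1, 2, 3 and 5, saturated on 3 of these 4, and from 3.07 to 4.45 with a median of 3.90 in TW, 4.04-fold higher in GC without overlap with saturated spots at their value (adjusted p = 0.000106). GC array 4 had no value after outlier spots were removed. FST, follistatin, which binds activin, was at 5.95, 3.29, 1.64, 6.18 and 5.26 in GC, saturated on 1 array, and from -0.037 to 2.66 with a median of 1.6 on 7 TW arrays, with GC array 3 inside the TW range and a difference of 2.99 ± 0.77 (adjusted p = 0.0115). Without GC arrays 1 and 4 that p was 0.12. INHBB, the beta B subunit, was at -1.16, -6.93, -5.17, -1.25 and -0.77 in GC and -5.71 ± 0.79 in TW, with arrays 1, 4 and 5 above all TW arrays. Its difference of 2.65 ± 0.88 (adjusted p = 0.037) lost the call without any of those 3 arrays (adjusted p = 0.11 each time) and without TW array 1, 3, 6 or 9 (0.055 to 0.059). On the receptor and regulator side, GC was higher for the BMP receptors BMPR2 (1.93 ± 0.35) and BMPR1B (1.75 ± 0.29), the pseudoreceptor BAMBI (2.74 ± 0.45) and the signal transducer SMAD3 (1.09 ± 0.32). TW was higher for the receptor TGFBR2 (-4.65 ± 0.42, measured on 3 of 5 GC arrays) and the ligands BMP4 (-3.21 ± 0.37), BMP6 (-4.52 ± 0.66, measured on 1 of 5 GC arrays) and BMP7 (-3.72 ± 0.46, measured on 3 of 5 GC arrays). Adjusted p was at most 0.0187 in these 8 genes. AMH was not among the genes tested.

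The hedgehog ligands IHH and DHH were called higher in granulosa cells, and the receptor and target genes PTCH1 and GLI1 in theca. Of 12 pathway genes, 2 were higher in GC, both ligands, and 5 higher in TW. IHH, Indian hedgehog, was at -3.53, -4.07, -7.66, -4.23 and -0.88 in GC, measured on 4 arrays, and from -8.98 to -5.97 with a median of -8.25 in TW, measured on 2 arrays. GC array 3 lay inside the TW range and the other 4 above it, with a difference of 3.77 ± 0.83 or 13.6-fold (adjusted p = 0.00325). DHH, Desert hedgehog, was at -3.93, -4.01, -2.82, -0.77 and -0.61 in GC and from -5.49 to -3.54 with a median of -3.90 in TW, highest on GC arrays 4 and 5. Its difference of 1.84 ± 0.57 (adjusted p = 0.0266) lost the call without GC array 4 or 5 (adjusted p = 0.086 and 0.08). PTCH1, the hedgehog receptor and itself a target of the pathway, was at -7.0, -5.75, -4.92, -4.93 and -6.0 in GC and from -4.73 to -1.85 with a median of -3.47 in TW, 4.86-fold higher in TW without overlap (adjusted p = 0.00147). Of its 3 other probes 2 gave that direction and 1 a difference of 0.0059 the other way. GLI1, a transcription factor induced by hedgehog signals, was at -4.17, -5.50, -5.27, -4.79 and -4.83 in GC and from -3.76 to -0.022 with a median of -0.45 in TW. It was 16.5-fold higher in TW (adjusted p = 3.07e-05), and all 5 other probes had the same direction. The coreceptors BOC (-2.69 ± 0.54, measured on 1 of 5 GC arrays) and CDON (-1.93 ± 0.33, measured on 4 of 5 GC arrays) were also higher in TW, while the transducer SMO (-0.95 ± 0.37, measured on 4 of 5 GC arrays) was not called (adjusted p = 0.0713, 0.01 without GC array 5). BOC stood at -3.62 on GC array 1 against -7.67 to -7.35 on the other GC arrays, and PTCH1, BOC and CDON lost their calls under normexp correction, at adjusted p of 0.066, 0.11 and 0.086. With slide as a fixed block over all 34 arrays IHH, DHH and BOC were not called, at adjusted p of 0.0508, 0.245 and 0.0833.

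Of 65 ligand and receptor pairs listed, 42 had both members measured, and 6 of these were called in opposite layers. Among all named genes 8.48% were called higher in GC and 17.5% higher in TW. Some genes, PTCH1 and BMPR1B among them, stand in more than 1 pair, so the pairs are not independent. Whether the counts of pairs differ from those of unrelated genes was not tested. The ligand was higher in GC and the receptor in TW for IHH and PTCH1, DHH and PTCH1, and PTHLH and PTH1R. PTH1R, the receptor for parathyroid hormone and PTHLH, was at -4.68, -5.42, -6.82, -5.60 and -4.90 in GC and from -2.60 to 0.035 with a median of -1.12 in TW, 18.5-fold higher in TW without overlap (adjusted p = 8.61e-06). This pair showed the widest split of the 3, with 6.22 for the ligand and -4.21 for the receptor. The ligand was higher in TW and the receptor in GC for BMP4 and BMPR1B, BMP7 and BMPR1B, and HGF and MET. HGF, hepatocyte growth factor, differed by -3.96 ± 0.52 (adjusted p = 4.40e-05) and its receptor MET by 1.6 ± 0.45 on 8 TW arrays (adjusted p = 0.0166). In 8 pairs both members were higher in TW, as for the endothelin pair EDN1 (-4.57 ± 0.55, at least 7.64-fold) and EDNRB (-3.70 ± 0.69, measured on 1 of 5 GC arrays) and for ANGPT1 with its receptor TEK. In no listed pair were both higher in GC. The list leaves out ERBB4 (5.57) with its ligand BTC (3.84), both called higher in GC. It pairs NRG1, another ERBB4 ligand and higher in TW, only with ERBB3. The receptor alone was higher in TW in 12 pairs. KIT ligand KITLG (0.028 ± 0.53, measured on 3 of 5 GC arrays and 8 of 9 TW arrays) was not called (adjusted p = 0.978) while its receptor KIT (-1.46 ± 0.37, measured on 3 of 5 GC arrays) was higher in TW (adjusted p = 0.00881). PDGFA was likewise not called, at 0.74 ± 0.49 (adjusted p = 0.289) beside PDGFRA (-5.86 ± 0.52, measured on 1 of 5 GC arrays), and neither was VEGFA, at 0.74 ± 0.43 (adjusted p = 0.224, 0.002 without GC array 2) beside KDR (-3.66 ± 0.38, measured on 2 of 5 GC arrays). Both ligands were called toward GC under 1 other scaling each, PDGFA after quantile normalization (adjusted p = 0.0169) and VEGFA after median centring (adjusted p = 0.031). The guidance receptor ROBO2 (-3.84 ± 0.67, measured on 3 of 5 GC arrays), whose listed ligand was not measured and which is outside these pairs, was also higher in TW. KIT lost its call under quantile normalization, under normexp correction and in the authors' deposited table, at adjusted p of 0.096, 0.21 and 0.18.

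**Figure D3:**
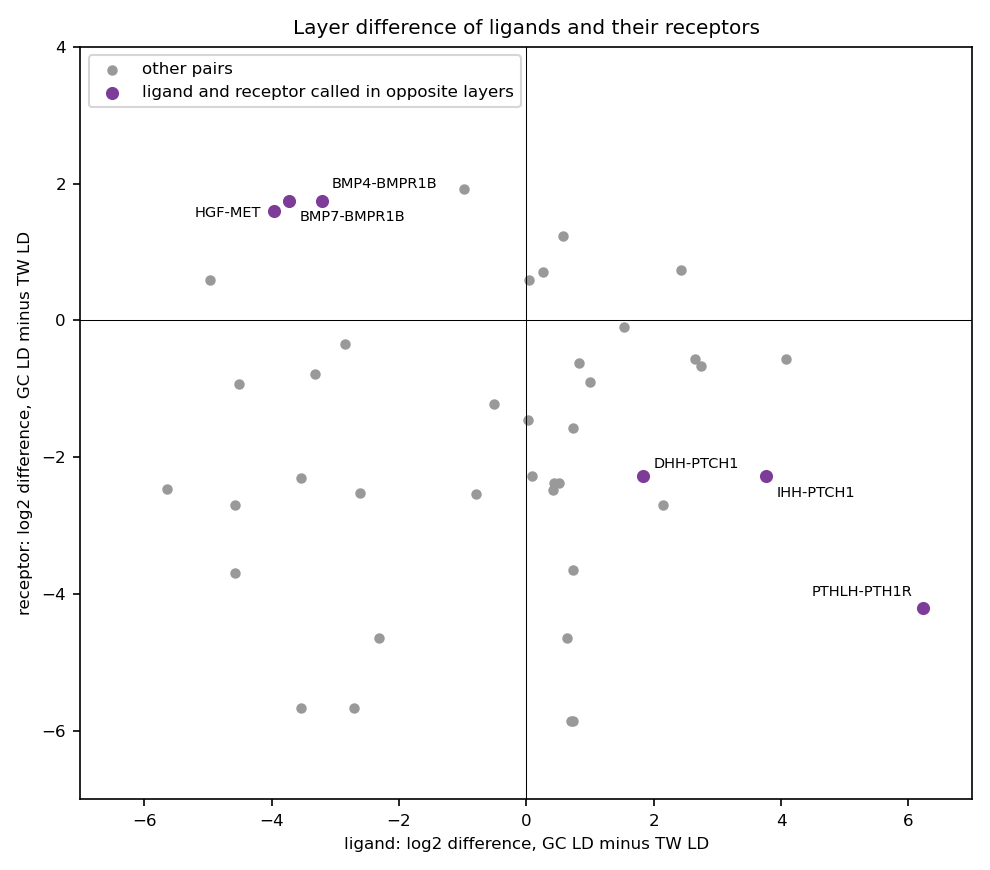
Each point is a ligand and receptor pair with both members measured, placed by the GC minus TW difference of the ligand (horizontal) and of the receptor (vertical), both log2. The 6 labelled pairs are called in opposite layers. PTHLH and PTH1R lie farthest from the origin toward the lower right.

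Transcription factors of the gonad were called in 9 of 24 cases, 3 toward GC and 6 toward TW, beside 27.4% of all features. Beside NR5A2, GC was higher for GATA6 (3.11 ± 0.33), a zinc-finger factor, without overlap, and for FOXO3 (1.63 ± 0.37). NR2F2, known as COUP-TFII and a marker of theca and stroma, was at -0.72, -1.02, -1.89, -0.81 and -0.76 in GC and from 2.44 to 3.5 with a median of 3.08 on the 4 TW arrays with values, 16.8-fold higher in TW (adjusted p = 9.78e-06). The fit dropped the other TW arrays, whose spots were outliers. Its relative NR2F1 (-4.07 ± 0.31) and the LIM-homeobox factor LHX9 (-2.82 ± 0.45, measured on 4 of 5 GC arrays) were also higher in TW, with adjusted p at most 0.00025. NR5A1, or steroidogenic factor, was at -2.35, -3.01, -2.31, -2.40 and -2.85 in GC and -1.80 ± 0.94 in TW and was not called (adjusted p = 0.18). GATA4 (-0.27 ± 0.37, adjusted p = 0.639) and WT1 (-0.56 ± 0.54, adjusted p = 0.479, 0.044 without GC array 5) were not called either. FOXL2 was not among the genes tested.

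Of 30 cholesterol supply genes 10 were higher in TW and 3 in GC, beside 17.8% and 9.58% of all features. Those higher in GC were lipoprotein lipase LPL (2.77 ± 0.47) and the lipoprotein receptors LRP8 (2.72 ± 0.54) and VLDLR (1.92 ± 0.48), with adjusted p at most 0.00761. TW was higher for the sterol exporters ABCG1 (-3.75 ± 0.54, measured on 1 of 5 GC arrays) and ABCA1 (-2.05 ± 0.60, measured on 2 of 5 GC arrays and 8 of 9 TW arrays). The ABCA1 call (adjusted p = 0.0185) was lost without GC array 2 (adjusted p = 0.055) and under quantile normalization (0.081). It was also lost under normexp correction (0.33) and in the authors' deposited table (0.17). The high-density lipoprotein receptor SCARB1 (-1.19 ± 0.51) was not called, with an adjusted p of 0.101. Without GC array 3 that value was 0.00617 and in the fit of all 34 arrays 0.0428, both toward TW.

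Matrix genes showed the most uniform difference of the lists that are not cell markers. Of 36 interstitial matrix genes, 31 were higher in TW and 1 higher in GC, with a median of -3.69. Biglycan, BGN, a small proteoglycan, was at 0.48, -2.75, -4.32, 0.14 and -0.88 in GC and from 4.01 to 4.73 with a median of 4.28 in TW, 54.5-fold higher without overlap (adjusted p = 6.70e-06). The collagen genes COL6A3 (-5.52 ± 0.91), COL1A1 (-5.07 ± 0.37) and COL3A1 (-1.39 ± 0.31) and fibulin FBLN5 (-5.40 ± 0.51, measured on 2 of 5 GC arrays) were also higher in TW, with adjusted p at most 0.00348, and COL3A1 was saturated on 5 TW arrays. The exception was versican, VCAN, a large proteoglycan that in other species is part of the follicular fluid and cumulus matrix, at 5.43, 3.56, 1.51, 4.85 and 4.36 in GC and from 0.92 to 2.23 with a median of 1.5 in TW. It was 5.31-fold higher in GC (adjusted p = 0.00183), with GC array 3 inside the TW range. Of 18 basement membrane genes 8 were higher in TW, among them COL15A1 (-5.89 ± 0.71, measured on 4 of 5 GC arrays), NID1 (-5.14 ± 0.29, at least 20.4-fold) and LAMA4 (-3.84 ± 0.70). Perlecan, HSPG2, was at 0.16, -1.85, -3.31, 0.34 and 0.16 in GC and from -4.92 to -4.13 with a median of -4.51 in TW and was the 1 member higher in GC, 12.4-fold without overlap (adjusted p = 6.84e-05). Of 27 matrix proteases and inhibitors, 9 were higher in TW and 0 in GC, including the membrane-bound MMP16 (-4.21 ± 0.53, measured on 1 of 5 GC arrays), the aggrecanase ADAMTS4 (-3.52 ± 0.83, measured on 4 of 5 GC arrays) and urokinase PLAU (-3.29 ± 0.81). ADAMTS1, which cleaves versican, stood at 3.55, -1.99, -0.60, -0.72 and -3.80 in GC and from 1.38 to 4.19 with a median of 2.45 in TW. Its difference of -3.26 ± 0.87 toward TW (adjusted p = 0.0117) turned to 1.10 on slide 2, where GC array 1 exceeded its TW neighbour.

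Vascular, muscle and immune genes were higher in theca wall. TW was higher for 19 of 21 endothelial markers (median -4.35), 14 of 18 smooth muscle and pericyte markers (median -2.67) and 21 of 26 leukocyte markers (median -2.67), and none of the 3 lists had a member higher in GC. The size of these medians depended on the scaling. In the same order they were -1.03, -1.28 and -0.93 with normexp and -1.97, -1.48 and -1.57 in the authors' deposited table. PECAM1, an endothelial adhesion molecule, was at -3.12, -8.13, -4.89, -3.65 and -5.49 in GC and from -0.29 to 2.27 with a median of 0.64 on 8 TW arrays, 59.6-fold higher in TW without overlap (adjusted p = 2.55e-05). The smooth muscle actin gene ACTA2 (-5.28 ± 0.48) and the channel subunit KCNMB1 (-4.50 ± 0.30, measured on 4 of 5 GC arrays) were also higher in TW, as were the invariant chain CD74 (-4.59 ± 0.57, measured on 4 of 5 GC arrays) and the T-cell coreceptor CD8A (-3.92 ± 0.29, measured on 1 of 5 GC arrays). Of 19 KIT, PDGF, VEGF and angiopoietin genes, 11 were higher in TW and 0 in GC, with TEK (-5.67 ± 0.55, at least 16.3-fold) and ANGPT1 (-3.53 ± 0.76, measured on 4 of 5 GC arrays) among them. Of 28 cytokine, chemokine and adhesion genes, 17 were higher in TW and 0 in GC. After CXCL10 and VCAM1 came the chemokines CXCL12 (-5.64 ± 0.85, measured on 3 of 5 GC arrays), CCL2 (-5.58 ± 1.33, measured on 4 of 5 GC arrays) and CXCL14 (-5.41 ± 0.56). On GC array 5 CCL2 lay at -9.60 and on GC array 3 at 0.70, within the TW range. Complement and coagulation genes were higher in TW in 15 of 26 cases, led by C1QA (-5.78 ± 0.61, measured on 4 of 5 GC arrays), C1QB (-5.04 ± 0.48, measured on 4 of 5 GC arrays) and CFB (-3.99 ± 0.82, measured on 3 of 5 GC arrays). The 2 members higher in GC both act in clotting. Tissue factor, F3, which starts coagulation, was at 2.20, 3.96, 3.09, 4.55 and 4.50 in GC and from -1.08 to 0.98 with a median of -0.19 in TW, 13.6-fold higher without overlap (adjusted p = 6.72e-06). SERPIND1, heparin cofactor II and an inhibitor of thrombin, was at 1.30, -0.56, -0.60, 1.49 and 2.02 in GC and from -3.74 to -2.31 with a median of -2.79 in TW, 11.6-fold higher without overlap (adjusted p = 1.57e-05). The part of the endothelial, muscle and leukocyte cells of the wall in the other differences toward TW was not tested.

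Growth factor systems held calls in both directions. Of 20 FGF, EGF and HGF genes 4 were higher in GC and 8 in TW. Beside ERBB4, GC was higher for its ligand BTC (3.84 ± 0.79, measured on 3 of 9 TW arrays) and for FGF12 (2.48 ± 0.37, measured on 8 of 9 TW arrays) and MET (1.6 ± 0.45), and TW for HGF (-3.96 ± 0.52, measured on 3 of 5 GC arrays), FGFR4 (-3.89 ± 0.29, measured on 3 of 5 GC arrays) and NRG1 (-3.53 ± 0.53, at least 3.44-fold), NRG1 being another ERBB4 ligand. IGF1, an insulin-like growth factor, overlapped, at -0.71, -1.05, -1.65, 1.25 and -0.027 in GC and -0.49 ± 0.43 in TW (difference 0.048 ± 0.39, adjusted p = 0.942). IGF2 was at -1.55, -5.18, -5.21, -3.39 and -3.64 in GC and from 0.48 to 1.88 with a median of 1.28 on 8 TW arrays, without overlap and 31.1-fold higher in TW (adjusted p = 8.61e-06). Of the 14 genes of that system 5 were higher in TW and 0 in GC. The binding protein IGFBP3 (-3.48 ± 0.99, measured on 4 of 5 GC arrays) lost its call without GC array 5 (adjusted p = 0.052). The call was also lost under normexp correction (0.10) and in the authors' deposited table (0.054). In the Notch pathway 2 of 15 genes were higher in GC and 7 in TW. The target HEY2 was at 2.65, -0.36, -0.14, 2.37 and 2.26 in GC and from -2.99 to -1.52 with a median of -2.53 in TW, 12.7-fold higher in GC (adjusted p = 6.42e-05), whereas the ligand JAG1 (-4.51 ± 0.45, measured on 4 of 5 GC arrays) and the receptor NOTCH4 (-3.55 ± 0.41, measured on 8 of 9 TW arrays, at least 3.07-fold) were higher in TW. In the WNT pathway 3 of 31 genes were higher in GC and 6 in TW, near the background of 9.58% and 17.8%. Those higher in GC were SFRP4, the secreted DKK3 (3.05 ± 0.49) and the receptor FZD6 (2.31 ± 0.32). Those higher in TW included the secreted antagonists FRZB (-5.03 ± 0.48, measured on 4 of 5 GC arrays), DKK2 (-3.22 ± 0.34, measured on 1 of 5 GC arrays) and SFRP1 (-3.17 ± 0.54, measured on 4 of 5 GC arrays) and the nuclear effector TCF7L2 (-4.15 ± 0.29), for which 1 of 5 other probes had the opposite sign. In the retinoid system, 1 of 18 genes was higher in GC, the retinol transporter receptor STRA6 (2.80 ± 0.79, measured on 8 of 9 TW arrays), and 3 in TW, including the retinol-binding RBP5 (-4.28 ± 0.84, measured on 1 of 5 GC arrays), no more than the background. On slide 2 RBP5 differed by 0.32, and STRA6 had an adjusted p of 0.14 without GC arrays 1 and 4.

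Cell division genes were not called different between the layers at late dominance. None of 40 was called, against 27.4% of all features, and the median was 0.45. MKI67, a marker of cycling cells, was at -2.79, -5.70, -6.90, -1.01 and -0.74 in GC and from -5.27 to -2.75 with a median of -3.33 in TW. GC arrays 4 and 5 lay above every TW array, arrays 2 and 3 below, and the difference was 0.23 ± 0.87 (adjusted p = 0.875). BUB1 and CCNB1, which act in mitosis, ordered the GC arrays in the same way and were not called (1.37 ± 0.79 and 0.90 ± 0.69). Without GC array 3 their adjusted p was 0.00874 and 0.047, toward GC. Among 17 cell cycle brakes and D cyclins, 5 were higher in GC and 2 in TW. Cyclin D2, CCND2, was at 5.76, 3.61, 4.48, 5.35 and 5.20 in GC, saturated on 1 array, and from 2.61 to 3.05 with a median of 2.83 in TW, 4.12-fold higher without overlap (adjusted p = 6.92e-05), and GADD45G (2.93 ± 0.69) was higher too. Cyclin D1, CCND1, went the other way, at -3.47, -4.64, -4.57, -3.24 and -5.46 in GC and from -1.27 to 1.06 with a median of 0.28 in TW, 18.7-fold higher in TW without overlap (adjusted p = 1.58e-05).

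Glycolysis and hypoxia genes were called higher in GC in 10 of 33 cases and in TW in 2, with a median of 0.73 against -0.041 over all features. Relative to the median over all features the list lay at 0.77, and between 0.48 and 0.73 under the other scalings. On slide 2 its median was -0.14 and on slide 8 0.83. The hypoxia-induced ANKRD37 (2.56 ± 0.46), pyruvate dehydrogenase kinase PDK1 (2.19 ± 0.48), the lactate exporter SLC16A3 (2.08 ± 0.47) and the glucose transporter SLC2A3 (1.75 ± 0.49, measured on 8 of 9 TW arrays) were higher in GC, with adjusted p at most 0.0152. With slide as a fixed block ANKRD37 and PDK1 were not called (adjusted p = 0.0637 and 0.0632). ENO2, an enolase, was at -1.25, -0.28, 1.23, -3.95 and -5.15 in GC, higher on arrays 1 to 3 than on 4 and 5. Its difference of 3.45 ± 1.09 (adjusted p = 0.0278) lost the call without GC array 1, 2 or 3, at adjusted p of 0.064, 0.074 and 0.072. Of 31 glutathione and antioxidant genes 3 were higher in GC, near the share of 9.58% over all features, and 1 in TW, under that of 17.8%. Those higher in GC include GCLC (2.18 ± 0.47), the rate-limiting enzyme of glutathione synthesis, and thioredoxin reductase TXNRD1 (1.95 ± 0.36). Among 24 junction and polarity genes 3 were higher in GC, CDH2 and the tight junction protein OCLN (1.95 ± 0.45, measured on 7 of 9 TW arrays) among them, and 6 in TW, led by the mesenchymal cadherin CDH11 (-5.14 ± 0.39). Among 22 channels and pumps 4 were higher in GC, including CLCN3 (1.81 ± 0.23) and KCNK1 (1.2 ± 0.29), and 8 in TW, including CLIC2 (-5.01 ± 0.64, at least 12.7-fold) and CACNA1C (-3.95 ± 0.53, at least 5.33-fold). The junction and channel counts stand beside 9.58% and 17.8% of all features.

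In the ovulatory cascade, 4 of 28 genes were higher in GC and 6 in TW, near the shares of 9.58% and 17.8% over all features. BTC (3.84 ± 0.79, measured on 3 of 9 TW arrays) and NRIP1 (1.88 ± 0.23) were among those higher in GC, the first an EGF-like ligand and the second a nuclear receptor corepressor needed for ovulation in mice. HAS2, the synthase of hyaluronan, was at 4.35, 0.43, -0.45, -2.41 and -9.50 in GC and from -9.53 to -3.68 with a median of -5.11 in TW. GC array 1 was high and array 5 next to the lowest TW array, and the difference of 5.00 ± 1.77 had an adjusted p of 0.0476. That call was lost without any 1 of GC arrays 1 to 4 or TW arrays 2, 3, 4, 6, 7, 8 and 9, with adjusted p from 0.053 to 0.14. PTGS2, the inducible prostaglandin synthase, was at -0.41, -0.23, -1.15, -1.05 and -1.27 in GC and from -2.76 to -1.0 with a median of -1.71 in TW, a difference of 0.95 ± 0.30 (adjusted p = 0.0265) that was lost without GC array 1 or 2 (adjusted p = 0.07 and 0.076). The PTGS2 call was also lost with the mean of all probes (0.33) and in the fit of all 34 arrays (0.24). It was lost too with slide as a fixed block (0.33) and without GC arrays 1 and 4 together (0.11). PTX3, a pentraxin of the expanding cumulus matrix in mice, was at 5.29, 5.50, 4.08, 1.26 and -3.73 in GC and from -1.04 to 4.06 with a median of 1.30 on 8 TW arrays and was not called (1.19 ± 1.46, adjusted p = 0.59). Other calls that rested on few arrays were the syndecan SDC4, higher in GC by 2.20 ± 0.76 (adjusted p = 0.0436, 0.13 without GC array 1, 0.08 without GC array 2, 0.1 without GC array 3 and 0.053 to 0.072 without TW array 2, 3, 4, 5, 7, 8 or 9), and the prolactin receptor PRLR, higher in TW at a difference of -1.54 ± 0.49. PRLR was not measured on any GC array, was at least 1.07-fold higher in TW, and lost its call (adjusted p = 0.029) without GC array 3 or 4 or TW array 4, at adjusted p of 0.066, 0.054 and 0.051. Each of the 4 other scalings also lost the PRLR call, at adjusted p from 0.061 to 0.30.

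**Figure D4:**
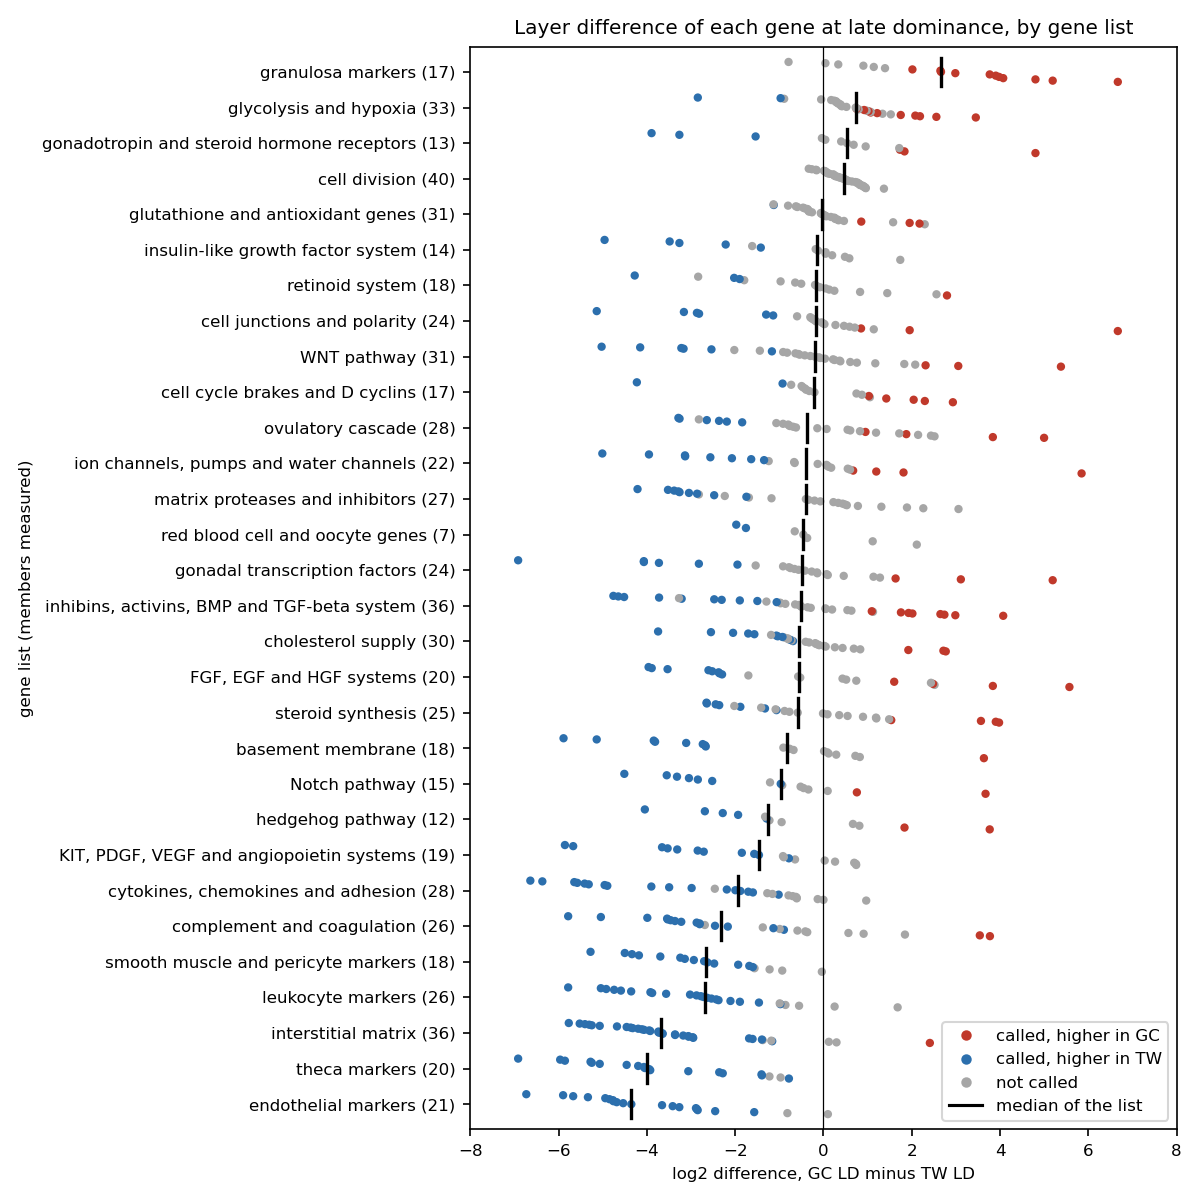
GC minus TW difference (log2) of every measured member of 30 gene lists, ordered by the list median (black bar). The number of measured members stands in brackets. Granulosa markers lie highest, at a median of 2.66, and endothelial markers lowest, at -4.35, and none of the 40 cell division genes is called.

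GC arrays varied more among themselves than TW arrays. The median SD over features was 0.633 in GC and 0.455 in TW, and 26.2% of features had an SD over 1 in GC against 10.0% in TW. These SDs rest on 5 and 9 arrays. A feature could pass the filter on 5 TW arrays alone and lie near background on every GC array. To pass on GC arrays alone it had to be well above background on all 5. The part of such features in the SDs was not tested. The named genes of largest SD in GC were CD1A6, CD1A, CD1A5, HAS2, MMP1, OLR1, NPTX2, ALDH1A3, EQMHCC1 and EDN2. The CD1 genes are near-identical copies, so their probes may share signal. MMP1, a collagenase, was at -0.81, 1.86, 0.98, -7.05 and -9.36 on the 5 GC arrays, and NPTX2, a neuronal pentraxin, at 1.28, 1.69, 2.77, -3.24 and -8.65. OLR1, a receptor for oxidised lipoproteins, was at 1.77, 2.07, 0.46, -4.06 and -9.43. Arrays 1 to 3 were high for all 3 genes and arrays 4 and 5 low, the order seen for PTX3. MKI67 and HSD17B1 showed the reverse, with arrays 4 and 5 above 2 and 3. The retinaldehyde dehydrogenase ALDH1A3, at -0.28, -2.45, 2.68, -5.56 and -9.35, and the endothelin EDN2, at 2.58, -6.81, 1.02, -4.85 and -6.89, gave other orders, and CD1A, an antigen-presenting molecule, split into 3 high and 2 low arrays (2.11, -8.10, 3.43, -7.45 and 1.84). None of these 6 genes was called between layers (adjusted p from 0.158 to 0.417), and NPTX2 reached 0.012 without GC array 5, 0.0393 in the fit of all 34 arrays and 0.0492 with slide as a fixed block. In TW the largest SDs were those of CD1A6, EQMHCC1, CHRDL2, CGA, LGI1, TBX19, ALDH1A3, CALCB, S100A12 and DENND2D. CHRDL2, a chordin-like BMP inhibitor, ran from -9.15 to 2.12 with a median of -4.36 in TW, CGA, the glycoprotein hormone alpha subunit, from -4.62 to 5.06 with a median of -2.83, and TBX19, a T-box factor of pituitary cells, from -9.58 to 1.04 with a median of -4.06. These 3 genes were not called (adjusted p = 0.151, 0.498 and 0.0887), and TBX19 reached 0.037 without TW array 8. In the fit of all 34 arrays CHRDL2 and TBX19 were called toward TW (adjusted p = 0.034 and 0.0311). CALCB, a calcitonin gene-related peptide, ran from -6.30 to 3.26 with a median of -0.41 in TW and was higher there, at a difference of -5.93 ± 1.5 (adjusted p = 0.0082), but stood at 0.18 on slide 8.

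Slides 2 and 8 each held 1 array of both layers, GC array 1 with TW array 2 and GC array 4 with TW array 8. Of the features called over all arrays, 96.1% had the same direction on slide 2 and 98.5% on slide 8, although these 4 arrays also enter the pooled difference. These 4 steroidogenic genes kept their sign there. STAR differed by -2.12 and -2.77, CYP11A1 by -2.47 and -1.71, HSD3B2 by 3.82 and 4.45, and CYP19A1 by 3.66 and 4.08. The signalling pairs did too, with PTHLH at 5.58 and 9.76, PTH1R at -2.86 and -5.63, IHH at 4.95 and 4.22, and PTCH1 at -3.09 and -2.24. The exception was DHH, at -0.067 on slide 2 and 2.77 on slide 8. Endothelial markers had a median of -2.76 on slide 2 and -3.65 on slide 8 against -4.35 over all arrays, and interstitial matrix genes -2.95 and -3.35 against -3.69. The GC arrays of these slides are those with the highest theca and granulosa sums. Cell division genes had a median of 0.89 on slide 2 and 2.59 on slide 8, where GC array 4 is among the arrays high for MKI67. Each slide gives 1 value a layer, and these differences have no replicate check. With slide as a fixed block over all 34 arrays, 1208 features were higher in GC and 2740 in TW.

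The gap between layers was compared with that at the stages before and after. The difference between the LD and ED gaps was called for 0 of 27846 features (0%) by limma, with 2123 at an unadjusted p under 0.05, and for 277 when GC array 5 was left out. Between LD and PO the gap differed for 5484 features (19.7%). GC was relatively higher at LD than at PO in 3027 (10.9%) and relatively lower in 2457 (8.82%). These LD arrays are shared by both comparisons. Without GC arrays 1 and 4 the total was 2457 rather than 5484. Of the 40 cell division genes, 31 were called, beside a background of 19.7%. Its median gap was 1.78 at ED, 0.45 at LD and -2.95 at PO. MKI67 was at -0.37 ± 0.35 in GC and -2.19 ± 0.72 in TW at ED, at -3.43 ± 2.77 and -3.66 ± 0.77 at LD, and at -7.15 ± 0.70 and -2.42 ± 0.21 at PO. Its gap changed by 4.96 ± 0.97 from PO to LD (adjusted p = 0.00135). The 10 named genes of largest change between LD and PO included 4 more of mitosis or its control, CENPF (5.98 ± 1.22), NDC80 (5.98 ± 1.25), E2F8 (5.33 ± 0.98) and RACGAP1 (5.19 ± 1.13), all relatively higher in GC at LD. Those 4 were not called between layers at LD itself (adjusted p = 0.768, 0.963, 0.557 and 0.696), except RACGAP1 when GC array 3 was left out (0.028). The peptide hormone gene SST, somatostatin, changed by 5.78 ± 1.23 (adjusted p = 0.00237), and did not pass the filter on dim probes at LD alone. GC was relatively lower at LD for AGPAT4 (-5.77 ± 0.82), an acyltransferase of phospholipid synthesis, NR0B2 (-5.54 ± 1.16), a nuclear receptor without a DNA-binding domain, HPD (-5.39 ± 1.17), an enzyme of tyrosine breakdown, GNAZ (-5.31 ± 0.91), a G-protein subunit, and PLAU (-5.24 ± 1.18). AGPAT4 went from -2.60 at LD (adjusted p = 0.00184) to 3.17 at PO. NR0B2, HPD and GNAZ were not called at LD in the fit of 14 arrays (adjusted p = 0.242, 0.0568 and 0.0585). In the fit of all 34 arrays, HPD and GNAZ were called toward TW (adjusted p = 0.0162 and 0.00699). On the 14 arrays HPD was called without TW array 1 or 9 (0.00244 and 0.041) and GNAZ without GC array 2 or 3 (0.038 and 0.00288).

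Of the 12 hedgehog pathway genes, 5 had a gap that differed between LD and PO, beside 19.7% of all features, among them IHH, PTCH1 and GLI1, while DHH, BOC, CDON and SMO did not pass (adjusted p = 0.765, 0.216, 0.937 and 0.262). IHH differed between layers by 6.20 at ED, 3.77 at LD and 0.15 at PO, a change of 3.62 ± 1.23 from PO to LD (adjusted p = 0.0354). Its GC level went from -1.86 ± 2.00 at ED through -4.07 ± 2.42 at LD to -8.16 ± 0.67 at PO. That PO level is about the TW level at LD, where most arrays did not measure IHH. A gap between layers at PO could therefore be hidden by background. PTCH1 and GLI1 differed by -3.64 and -4.96 at ED and by 0.094 and -0.65 at PO, with changes of -2.38 ± 0.62 and -3.40 ± 0.93 from PO to LD (adjusted p = 0.0082 and 0.0112). PTHLH and PTH1R showed no called change of the gap, with 6.65 and -4.75 at ED and 5.67 and -2.70 at PO (adjusted p for LD against PO = 0.774 and 0.157). HSD17B1 was at 7.10 at ED and -0.35 at PO, a change of 4.25 ± 1.5 (adjusted p = 0.0439), while CYP19A1 was at 5.69 and 4.98 (adjusted p = 0.641). CYP11A1 differed by -0.31 at PO and its gap changed by -2.13 ± 0.69 (adjusted p = 0.0282). STAR went from -5.10 at ED through -2.64 to -0.80 at PO, and neither step was called (adjusted p = 0.603 against ED and 0.223 against PO). WT1 reached -4.70 at PO, a change of 4.14 ± 0.72 (adjusted p = 0.000654). OCLN turned from 1.95 to -2.47 (change 4.42 ± 0.78, adjusted p = 0.00071), and VCAN from 2.41 to -0.32 (change 2.73 ± 0.58, adjusted p = 0.00248).

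**Figure D5:**
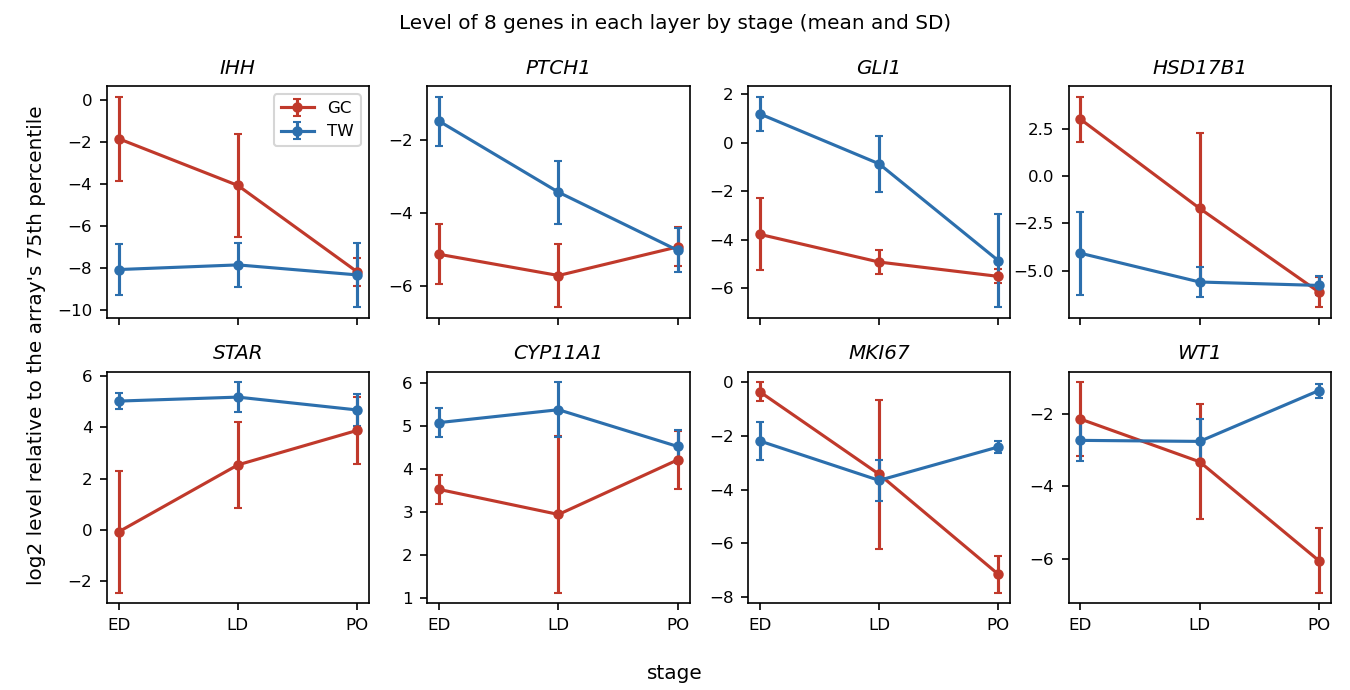
Mean level and SD of 8 genes in GC and TW at the ED, LD and PO stages, as log2 relative to the array's 75th percentile, with 5 arrays a group and 9 for TW LD. The layers are apart at LD and close at PO for IHH, PTCH1, GLI1 and HSD17B1, and close at LD and apart at PO for MKI67 and WT1.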

How the data were processed

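RNA of granulosa cells and theca wall was labelled with Cy3 and hybridised to 1-colour arrays, 1 per sample. Per the labels' protocols it was extracted with TRIzol, had an RNA integrity number above 7 and was amplified from 500 ng. Per the file headers the deposited intensity values came from version 9.5.3.1 of Agilent Feature Extraction, and version 9.1 stands in the submitters' processing notes. The deposited processed signal is already background-subtracted and the deposited mean and background signals are raw. The authors' deposited value table is log2 by its range, its columns share 1 median of 7.29, and its columns correlated at 0.9973 to 0.9999 with the log2 scanner signals, and how it was normalized is not stated in these sources. Spot flags deposited in the same files marked spots well above background, saturated or outlying.

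Levels are log2 processed signal minus the array's 75th percentile over 43803 non-control spots. Outlier spots were removed and spots of a probe averaged. A probe was tested if 5 or more of the fitted arrays had it well above background, and a gene was shown by its probe of highest mean over all 34 arrays. Of 43603 probes 22193 had a symbol (12149 symbols), from names in the files or RefSeq tables, and unnamed probes stood alone. On the late dominant arrays 64.3 to 79.9% of spots were well above background, and the number of arrays limits the precision. TW LD arrays 6 and 7, both on slide 7, had coefficients of variation of repeated probes of 18.9 and 15.2%, against 3.76 to 5.96% on the others.

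The layers were compared with limma 3.58.1 in R 4.3.3 (lmFit and eBayes, with Benjamini-Hochberg adjustment and a threshold of 0.05), on 14 arrays for late dominance and on all 34 with 6 group means for the layer gap between stages. The fits were also run on simulated arrays with known differences, in which both layers had the same spread. That run does not cover the unequal spreads of these arrays. The labels give no replicate numbers, so arrays were numbered in deposit order and nothing was paired. The members, the 30 gene lists and the 65 ligand and receptor pairs were chosen with earlier results of these data known. Genes are named if they are key genes of follicle biology, among the 15 of largest difference each way without overlap, the leading members of a list, members of a pair, or among the 10 of largest gap change or SD. Alternatives were other scalings, filters, slide as a block, single slides, all probes, a trended prior, and leaving out each array. Leaving out GC LD arrays 1 and 4 together was added after seeing the data. A few genes are not reported here.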

Additional observations from a re-analysis of the deposited data

Results flagged for a closer look

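Among the values of named genes and marker sums, 380 groups were searched for 1 array far from its neighbours in its group. A group held the 5 GC or the 9 TW arrays, less those without a value for that gene. Of these groups 17 (4.47%) had such an array, where chance gives about 1 in 20. GC LD array 1 lay far above the others for BOC (-3.62, next -7.35) and summed endothelial markers (2.65 times the 75th percentile, next array 0.923). GC LD array 2 lay far above the others for FOXO3 (-0.85, next -2.82). GC LD array 3 lay far above the others for AGPAT4 (-2.20, next -5.25) and far below the others for NR2F2 (-1.89, next -1.02) and PRLR (-9.16, next -8.28). GC LD array 5 lay far below the others for NRG1 (-9.62, next -8.28). TW LD array 1 lay far above the others for ANGPT1 (0.95, next -1.47) and far below the others for STRA6 (-7.68, next -6.23). TW LD array 3 lay far below the others for ABCA1 (-7.05, next -5.66). TW LD array 4 lay far below the others for SERPIND1 (-3.74, next -3.01). TW LD array 5 lay far below the others for CENPF (-5.60, next -4.33), BUB1 (-3.12, next -1.87) and CCNB1 (-2.31, next -1.12). TW LD array 6 lay far above the others for PDGFA (-5.31, next -7.13) and far below the others for NALF1 (-8.83, next -7.09) and GLI1 (-3.76, next -1.12). TW LD array 6 is 1 of the 2 arrays on slide 7, and GC LD array 1 had the highest theca and granulosa marker sums of the GC arrays. The part of these in the far values was not tested.

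For 39 of 184 named genes tested the gap between layers differed between late dominant and preovulatory follicles, by limma on all 34 arrays at adjusted p from 0.000328 to 0.0486. The background was 19.7% of all features. Some of the 184 named genes were chosen because their gap change was among the largest. The count therefore cannot show whether named genes changed more often than other features. Each value here is the GC minus TW gap at LD minus that at PO, ± SE. Granulosa cells were relatively higher at LD for the cell cycle genes CENPF (5.98 ± 1.22), NDC80 (5.98 ± 1.25), E2F8 (5.33 ± 0.98), RACGAP1 (5.19 ± 1.13), MKI67 (4.96 ± 0.97), CCNB1 (4.37 ± 0.93) and BUB1 (3.26 ± 0.95) and for the cyclin CCND2 (1.04 ± 0.36). The same direction was called for the signals, receptors and effectors SST (5.78 ± 1.23), IHH (3.62 ± 1.23), FZD6 (2.87 ± 0.56), DKK3 (1.89 ± 0.66), HEY2 (2.52 ± 0.65), PAQR8 (2.44 ± 0.51), EDN1 (2.42 ± 0.70), HGF (1.83 ± 0.61) and KDR (1.81 ± 0.46). It was also called for matrix and junction genes, OCLN (4.42 ± 0.78), VCAN (2.73 ± 0.58), HSPG2 (2.38 ± 0.68) and NID1 (1.51 ± 0.55), and for HSD17B1 (4.25 ± 1.5), WT1 (4.14 ± 0.72), EMB (3.26 ± 1.07), LSMEM2 (2.27 ± 0.81), GCLC (2.16 ± 0.69) and CD8A (1.52 ± 0.52). Granulosa cells were relatively lower at LD for AGPAT4 (-5.77 ± 0.82), NR0B2 (-5.54 ± 1.16), HPD (-5.39 ± 1.17), GNAZ (-5.31 ± 0.91), PLAU (-5.24 ± 1.18) and CXCL14 (-4.01 ± 0.91). They were also relatively lower for the hedgehog targets GLI1 (-3.40 ± 0.93) and PTCH1 (-2.38 ± 0.62), for the steroidogenic genes TSPO (-2.47 ± 0.51) and CYP11A1 (-2.13 ± 0.69), and for NR2F1 (-2.21 ± 0.67) and ANKRD37 (-1.86 ± 0.66).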

How the results depend on the processing

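The count of features higher in GC, 2478, depended on the scaling and on slide. It was 4138 after quantile normalization, 8142 after median centring, 3784 after normexp and quantile normalization and 3993 in the authors' deposited table, and 1208 with slide as a fixed block over all 34 arrays. Without GC LD arrays 1 and 4, a choice made after seeing the data, it was 1537. The count higher in TW, 4605, fell to 2740 with the slide block and stayed within 1.5 times under every other alternative. Leaving out each array in turn gave 1961 to 3186 and 4105 to 5051. No difference of the layer gap between LD and ED was called, against 2 with normexp, 4 in the deposited table, 1 with slide as a random block, 2 with it as a fixed block, 1 with the mean of all probes, 1 with a trended prior and 1 without GC LD arrays 1 and 4. Leaving out each array gave 0 to 277, with 9 without GC LD array 4 and 277 without GC LD array 5. For LD against PO the count of 5484 became 2457 without GC LD arrays 1 and 4 and ran from 4462 to 7391 without single arrays.

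Of 184 named genes, 30 could not be called different under the fixed slide block and 16 without GC LD arrays 1 and 4. Leaving out single arrays ended the call of 11 genes and gave one to 12 others. No named gene that was called reversed except within single slides, on slide 2 BOC (0.83), DHH (-0.067), RBP5 (0.32) and ADAMTS1 (1.10) and on slide 8 ABCA1 (0.47) and CALCB (0.18). The causes were not tested. Within a slide there is 1 array a layer, so no count of calls can be given. No paired analysis was possible because the labels carry no replicate numbers and do not tie granulosa to theca samples. Probes near background and saturated probes, such as that of HSD3B2, limit the size of a fold change. The sizes also depended on the scaling. With normexp the theca marker median was -2.57 rather than -4.0 and the granulosa marker median 1.86 rather than 2.66. The PTCH1 difference was -0.62 rather than -2.28.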
